A study of Mus musculus with 8 samples.

Results

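The acute-phase genes of mouse liver described here were Lcn2, Saa1, Saa2, Saa3, Saa4, Hp, Hpx, Orm1, Orm2 and Itih4. They were 10 of the 21612 named genes on the array and had 11 of its 28663 named probes, with 2 probes for Itih4 and 1 for each other gene. Lcn2 and Saa3 were chosen because their signal was higher after irisin treatment in these same arrays, so their values are a description and were not tested. The other 8 genes were taken for their role in the acute-phase response. Expression was measured in AML12 cells, a line of mouse hepatocytes that was derived from a mouse transgenic for human TGF-alpha. Cells in DMEM F-12 medium with 10% fetal bovine serum were kept for 24 h without irisin (control, 4 samples) or with 0.5 µg/ml irisin, the peptide cleaved from Fndc5 (4 samples), and each sample was hybridized to its own one-color Agilent array. The study asked which genes irisin changes in hepatocytes. All samples came from this single line. The labels do not say whether the replicates were separate cultures, so the p-values measure the spread between these samples, which may be technical.

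The acute-phase response is the change in the proteins that hepatocytes release during infection, injury or inflammation. Interleukin-6 and related cytokines act through gp130 and STAT3, and interleukin-1 and tumor necrosis factor act through NF-kB, with the C/EBP factors taking part in both branches. Serum amyloid A and Orm genes are usually grouped with the genes that answer to both branches together, and haptoglobin, hemopexin and fibrinogen with those that answer to interleukin-6. Lcn2 encodes lipocalin 2, which binds bacterial siderophores and so withholds iron. Saa1 and Saa2 encode the main acute-phase serum amyloid A proteins of liver, which travel on HDL, Saa3 is also made in macrophages and fat, and Saa4 is the constitutive form. Hp encodes haptoglobin, which binds free hemoglobin, and Hpx encodes hemopexin, which binds heme. Orm1 and Orm2 encode alpha-1-acid glycoproteins, and Itih4 encodes a heavy chain of the inter-alpha-trypsin inhibitor family.

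The sequence before the annotated start of transcription was taken from RefSeq (GRCm38.p6), whose table held 8 of the 10 genes, all but Hp and Orm1. The Lcn2 window is chr2:32387740-32387989 on the minus strand and the Saa3 window is chr7:46715677-46715926 on the minus strand. The Saa1 window is chr7:46742981-46743230 on the minus strand and the Saa2 window is chr7:46751583-46751832 on the plus strand. They are shown because Lcn2 and Saa3 are the genes chosen for their change, and because Saa1 and Saa2 are near copies of each other. Each is 250 bases long and is read 5′ to 3′ toward the start of its gene. Capitals mark matches to the motifs searched on both strands, which were the C/EBP core TTNNGNAA, the STAT pair TTCNNNGAA, TATAAA and the NF-kB consensus.
Lcn2: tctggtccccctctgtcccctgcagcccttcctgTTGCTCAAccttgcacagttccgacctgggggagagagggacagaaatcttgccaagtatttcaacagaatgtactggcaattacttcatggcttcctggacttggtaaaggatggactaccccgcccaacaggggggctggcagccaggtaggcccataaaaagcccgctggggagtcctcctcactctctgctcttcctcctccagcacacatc
Saa3: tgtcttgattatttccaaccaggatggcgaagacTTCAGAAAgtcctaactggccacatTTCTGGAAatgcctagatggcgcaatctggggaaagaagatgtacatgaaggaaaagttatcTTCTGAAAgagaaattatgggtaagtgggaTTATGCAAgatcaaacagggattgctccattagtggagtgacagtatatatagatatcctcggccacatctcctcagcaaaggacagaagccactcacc
Saa1: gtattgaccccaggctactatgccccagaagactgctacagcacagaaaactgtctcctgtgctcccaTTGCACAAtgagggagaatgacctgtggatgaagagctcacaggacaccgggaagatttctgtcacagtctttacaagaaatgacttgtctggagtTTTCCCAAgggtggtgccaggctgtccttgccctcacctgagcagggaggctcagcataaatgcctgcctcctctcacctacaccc
Saa2: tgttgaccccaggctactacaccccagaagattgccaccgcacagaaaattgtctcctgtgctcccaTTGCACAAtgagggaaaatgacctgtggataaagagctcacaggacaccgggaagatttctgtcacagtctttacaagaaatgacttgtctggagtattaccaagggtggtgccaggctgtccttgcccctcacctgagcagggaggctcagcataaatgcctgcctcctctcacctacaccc
The C/EBP core was the motif these genes shared most often. It was found in 7 of the 8 windows, the exception being Itih4, and in 36.8% of the 32851 promoter windows of the same length. Lcn2 had 1 match, 216 to 209 bases before the start, and Saa3 had 4 matches, of which the nearest lay 99 to 92 bases before the start. Saa1 had 2 matches and Saa2 had 1, and their windows were identical at 238 of 249 aligned bases (95.6%). The window of Saa3 was identical to that of Lcn2 at 52.6% of aligned bases, within the range of 49.4% to 62.9% for the pairs other than Saa1 and Saa2. The STAT pair was found only in Itih4 among the 8 genes and in 7.02% of all windows, and TATAAA only in Orm2 and in 12.4% of all windows. The NF-kB consensus was in none of the 8 windows and in 5.93% of all windows. A match is a description of letters, and a window without one says nothing about binding.

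**Figure D1:**
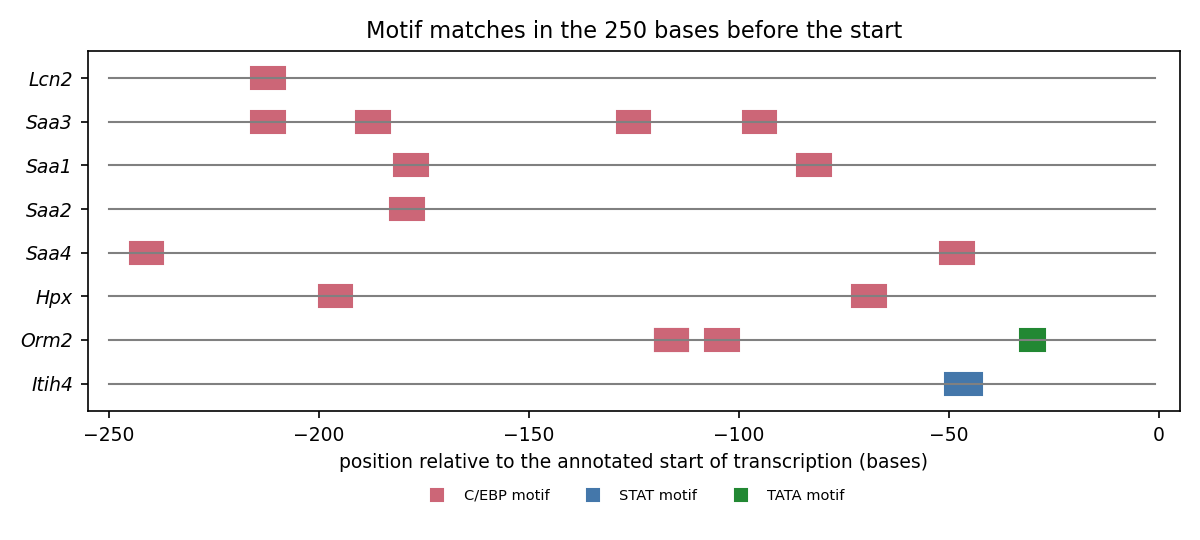
Matches to the C/EBP, STAT and TATA motifs in the 250 bases before the annotated start of 8 acute-phase genes. The x axis is the position in bases relative to the start, each grey line is the window of a gene, and each block is a match on either strand. Saa3 has 4 C/EBP matches and Itih4 is the only gene of the 8 without one.

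The irisin arrays were brighter, with a 75th percentile of 682 to 850 against 372 to 534 in control cells, and 59.5% to 64.1% of probes were detected well above background on each array. The control arrays shared a slide and a scan, and the irisin arrays shared another, so the treatment cannot be told apart from slide and scan. Values below are log2 signals after division by the 75th percentile of the same array, which compare a probe between arrays and not with other probes. All 8 hepatocyte markers, among them Alb, Ttr and Hnf4a, were well above background on all 8 arrays. Their summed level, as a multiple of the 75th percentile, was 448 to 498 in control cells and 363 to 426 after irisin. A call here means a change of at least 1.5-fold with an adjusted p under 0.05 in limma. None of the 8 was called up, against 0.531% of all tested genes, or down, against 10.2%. Krt18 and Trf carried the largest shares of the sum. They differed by -0.47 (limma adjusted p = 0.00522) and -0.39 (limma adjusted p = 0.0204), both without overlap and under 1.5-fold. The others ran from -0.17 in Apoa1 to 0.24 in Apob. Of the markers of macrophages and neutrophils, cells that also make Lcn2 or Saa3, 3 of 7 and 4 of 7 were above background on all arrays, while Lyz2, Mpo and Ngp were above it on none. Their summed levels were 0.557 to 0.662 and 0.822 to 1.12 on the control arrays, and 0.467 to 0.557 and 0.706 to 0.816 on the irisin arrays. Of these markers only the 3 and the 4 above background on all arrays were tested. None of the tested markers was called up, against 0.531% of all tested genes. Marco (-1.21) and Camp (-0.86), 1 in each list, were called down, against 10.2%. Both calls were lost with normexp (-0.15 and -0.05) and with no scaling (-0.47 and -0.12). Within the neutrophil list Elane carried most of the sum and differed by -0.46 (limma adjusted p = 0.0194), whereas Ly6g differed by 0.35 without overlap between the groups (limma adjusted p = 0.0197), both under 1.5-fold. The markers of other liver cells were treated in the same way. For stellate cells 2 of 7 were above background on all arrays, with summed levels of 0.0845 to 0.131 and 0.0576 to 0.0762 on the control and irisin arrays, and Des, Pdgfrb, Lrat, Dcn and Reln were above it on none. For endothelial cells 2 of 6 were above background on all arrays (0.703 to 0.790 and 0.414 to 0.585), and Cdh5, Tek and Lyve1 were above it on none. In each of these lists only the 2 markers above background on all arrays were tested. Of the 2, 1 was called down, against 10.2% of all tested genes, and none up, against 0.531%. For cholangiocytes 3 of 5 were above it on all arrays (42.5 to 50.3 and 41.1 to 48.0). Only these 3 were tested, and none was called up, against 0.531% of all tested genes, or down, against 10.2%. Krt19 carried most of the cholangiocyte sum and differed by -0.07 (limma adjusted p = 0.647). The part of these cell types in the values below was not tested.

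Among the acute-phase genes Lcn2, Saa3 and Saa1 had higher signal on every irisin array than on any control array, with a smaller change in Saa1. Groups without overlap were found for 27.2% of all tested probes. Hp was higher on average with overlapping arrays, and the means of Hpx, Orm1 and Orm2 differed by at most 0.03 on the log2 scale. Lcn2 was 0.53, 0.56, 1.15 and 0.97 in control cells and 1.99, 2.13, 2.11 and 2.36 after irisin. The lowest irisin array lay above the highest control array. The means were 0.80 ± 0.307 (SD, n = 4) and 2.15 ± 0.156 (SD, n = 4), a difference of 1.35 (SE 0.15), or 2.54-fold. As processed signal before scaling, Lcn2 was 536 to 1183 in control cells and 2982 to 4379 after irisin.

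Saa3 was -1.58, -1.70, -1.26 and -0.99 in control cells and -0.09, 0.06, -0.29 and 0.10 after irisin. Again the groups did not overlap. The means were -1.38 ± 0.321 (SD, n = 4) and -0.06 ± 0.178 (SD, n = 4), a difference of 1.33 (SE 0.16), or 2.51-fold. In both Lcn2 and Saa3 control replicates 1 and 2 were the lowest, control replicates 3 and 4 were higher, and irisin replicate 4 was the highest of all. When each gene was centred on its control mean, their 8 values differed by 0.152 on the log2 scale (root mean square), which made each the closest tested probe to the other. Both genes were chosen for a rise of nearly equal size, which this measure counts as likeness, so the value is a description and says little about the arrays within a group.

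**Figure D2:**
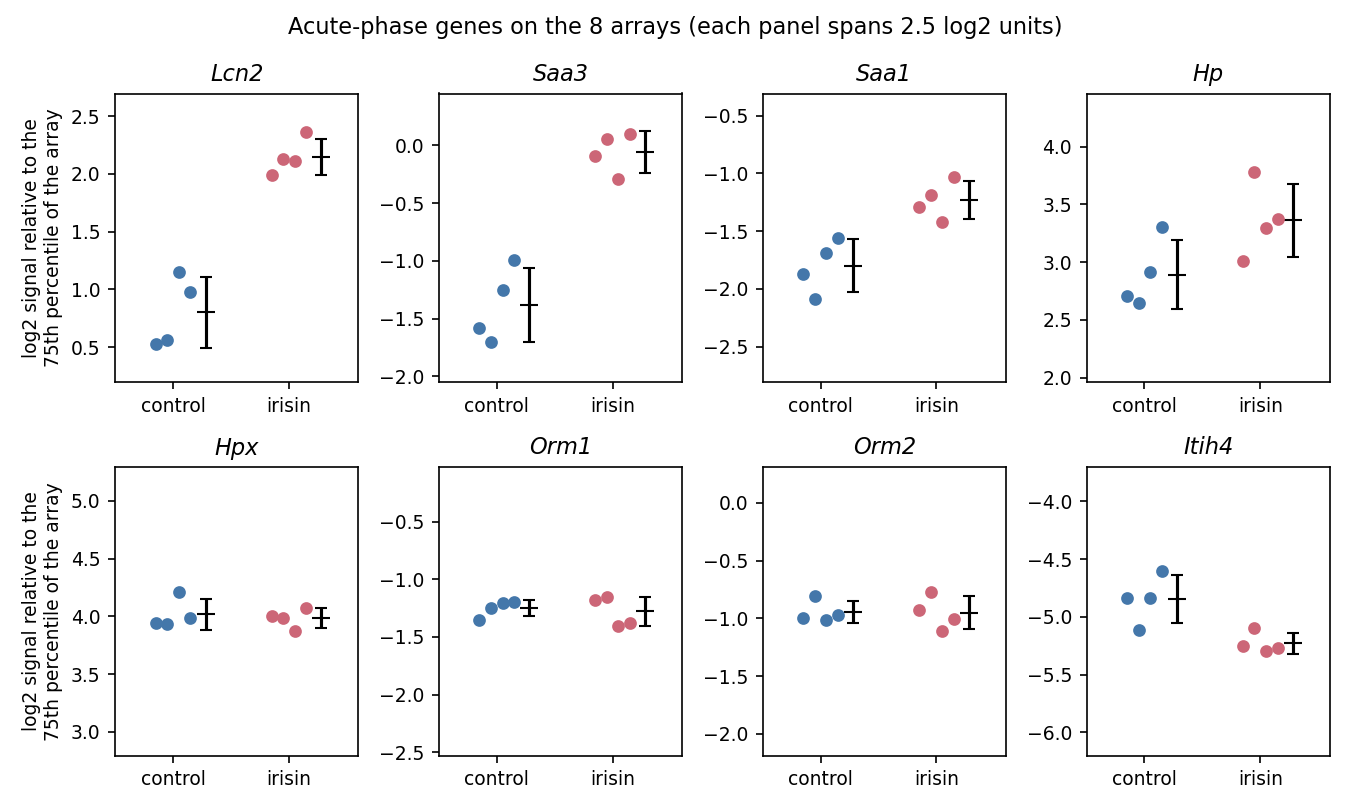
Log2 signal after division by the 75th percentile of its array (y axis) for 8 acute-phase genes on the 4 control and 4 irisin arrays (x axis). Points are arrays, bars are the mean and SD beside them, and every panel spans the same 2.5 log2 units around its own midpoint. Lcn2, Saa3 and Saa1 show no overlap between the groups, while Hp, Hpx, Orm1, Orm2 and Itih4 overlap.

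Saa1 was the serum amyloid A gene nearest to the threshold among those taken by role. It was -1.87, -2.09, -1.68 and -1.56 in control cells and -1.29, -1.19, -1.42 and -1.03 after irisin. The groups did not overlap, as was the case for 27.2% of all tested probes. The difference was 0.57 (SE 0.13, 95% interval 0.28 to 0.85), or 1.48-fold, just under the threshold of 1.5-fold, with an adjusted p of 0.00749 in limma over all 24093 tested probes. The exact two-sided permutation test gave p = 0.0286, the smallest that 4 arrays against 4 allow. The change of Saa1 went past 1.5-fold when control replicate 3 or 4, or irisin replicate 1 or 3, was left out (0.59 to 0.65). Over all runs with an array left out it was 0.47 to 0.65, with a limma adjusted p of 0.00638 to 0.0257. With normexp background correction it was 0.49.

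The other serum amyloid A genes were at the limit of detection. The Saa2 probe was well above background on none of the 4 control arrays and on 3 of the 4 irisin arrays, with processed signals of 1.13 to 3.36 and 4.65 to 9.43. The lowest signal of any probe well above background was 4.21 to 4.73 on these arrays, so that no fold change is given for Saa2. Saa4 was not well above background on any array, with processed signals between 0.952 and 2.40. Neither gene entered the test. Saa1 and Saa2 transcripts are nearly identical, and how far their probes tell them apart was not tested.

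Hp was 2.71, 2.64, 2.92 and 3.30 in control cells and 3.01, 3.78, 3.29 and 3.38 after irisin. Irisin replicates 1 and 3 lay below control replicate 4, so the groups overlapped. The difference was 0.47 (SE 0.18, 95% interval 0.07 to 0.87), with an adjusted p of 0.0845 in limma and an exact permutation p of 0.0857. Without control replicate 4 it was 0.61 with a limma adjusted p of 0.0278, and without irisin replicate 1 it was 0.59 with a limma adjusted p of 0.0374, both past the threshold. Over all runs with an array left out it was 0.33 to 0.61, with a limma adjusted p of 0.0278 to 0.200. With normexp background correction it was 0.39.

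Hpx, Orm1 and Orm2 gave narrow intervals around 0. Hpx was 3.94, 3.93, 4.21 and 3.98 in control cells and 4.00, 3.99, 3.87 and 4.07 after irisin, with a difference of -0.03 (95% interval -0.23 to 0.17, limma adjusted p = 0.853). Orm1 was -1.35, -1.25, -1.20 and -1.19 in control cells and -1.18, -1.15, -1.40 and -1.38 after irisin, with a difference of -0.03 (95% interval -0.23 to 0.17, limma adjusted p = 0.866). In Orm2 the values were -1.0, -0.80, -1.01 and -0.97 in control cells and -0.93, -0.77, -1.11 and -1.0 after irisin, with a difference of -0.0087 (95% interval -0.22 to 0.20, limma adjusted p = 0.964). The intervals leave out a 1.5-fold change in either direction for all 3 genes under this scaling, although without any scaling between arrays the differences were 0.71, 0.71 and 0.73.

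Itih4 was measured by 1 dim probe, with processed signals of 13.0 to 22. It was -4.83, -5.11, -4.83 and -4.61 in control cells and -5.26, -5.09, -5.30 and -5.27 after irisin, where irisin replicate 2 lay just above control replicate 2. The difference was -0.38 (SE 0.11, 95% interval -0.63 to -0.14), with an adjusted p of 0.0275 in limma, an exact permutation p of 0.0571 and a change under 1.5-fold. It was -0.02 with cyclic loess or with normexp background correction, -0.05 with quantile normalization, and turned to 0.19 with scaling to the spike-in probes and to 0.36 with no scaling. The other Itih4 probe was not well above background on any array.

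Of the 6 genes taken by role that were tested, none was called up, against 0.531% of all tested genes, and none was called down, against 10.2%, at 1.5-fold with an adjusted p under 0.05 in limma. At an unadjusted p under 0.05 in limma there were 3, Saa1, Hp and Itih4, against 29.5% of all tested genes. None was called by the test of the methods either. Of the 6 genes, 1 had groups that did not overlap, Saa1, against 27.2% of all tested probes. The median change of the 6 genes was -0.02, and that of all tested genes was -0.06. The error model of Feature Extraction gave about 10.0% for each signal of Lcn2, Saa3, Saa1, Hp, Hpx, Orm1 and Orm2. It gave the same for other bright probes such as Alb and Ttr, so this value is not particular to these genes. It was 11.2% to 12.8% for the Itih4 probe that was tested, and 14.4% to 86.5% for Saa2.

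The size of these differences, and for many genes their direction, depended on how the arrays were brought to a common scale. The median over all tested probes was -0.08 with the 75th percentile, 0.49 with scaling to the spike-in probes and 0.66 with no scaling. Of the 50 genes followed across the alternatives, 26 had a difference below 0. With no scaling 24 of these turned to a difference above 0, all but Marco and Camp, and with scaling to the spike-in probes 23 did, all but Marco, Camp and Il22. The sign turned in 6 of the 50 genes with cyclic loess, 6 with quantile normalization and 5 with normexp. Of the acute-phase genes listed at the start these were Hpx (0.06 and 0.09 with quantile normalization and cyclic loess) and Orm2 (0.07 with normexp). Of the related acute-phase lists described below, Fgg, C3 and Ttr turned with both quantile normalization and cyclic loess. Fgg also turned with normexp, and Mt2 with quantile normalization. The scalings by a single factor for each array move all probes together, so the change of a gene relative to that median is the same under each of them by construction. Quantile normalization, cyclic loess and normexp can move it. Relative to the median, the change of Saa1 was 0.65 with the 75th percentile and 0.52 to 0.56 with these alternatives. That of Hp was 0.55 and 0.43 to 0.53. For Lcn2 and Saa3, which were chosen for their change, it was 1.43 (1.29 to 1.35) and 1.41 (1.03 to 1.31). With no filter on dim probes the changes themselves stayed the same and only the median moved. The relative changes of Saa1, Hp, Lcn2 and Saa3 were then 0.86, 0.76, 1.64 and 1.62. Differences from Hpx on the same array, a reference picked after seeing the data, restate these values with a shift of 0.03, at 1.38 for Lcn2, 1.36 for Saa3 and 0.60 for Saa1.

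**Figure D3:**
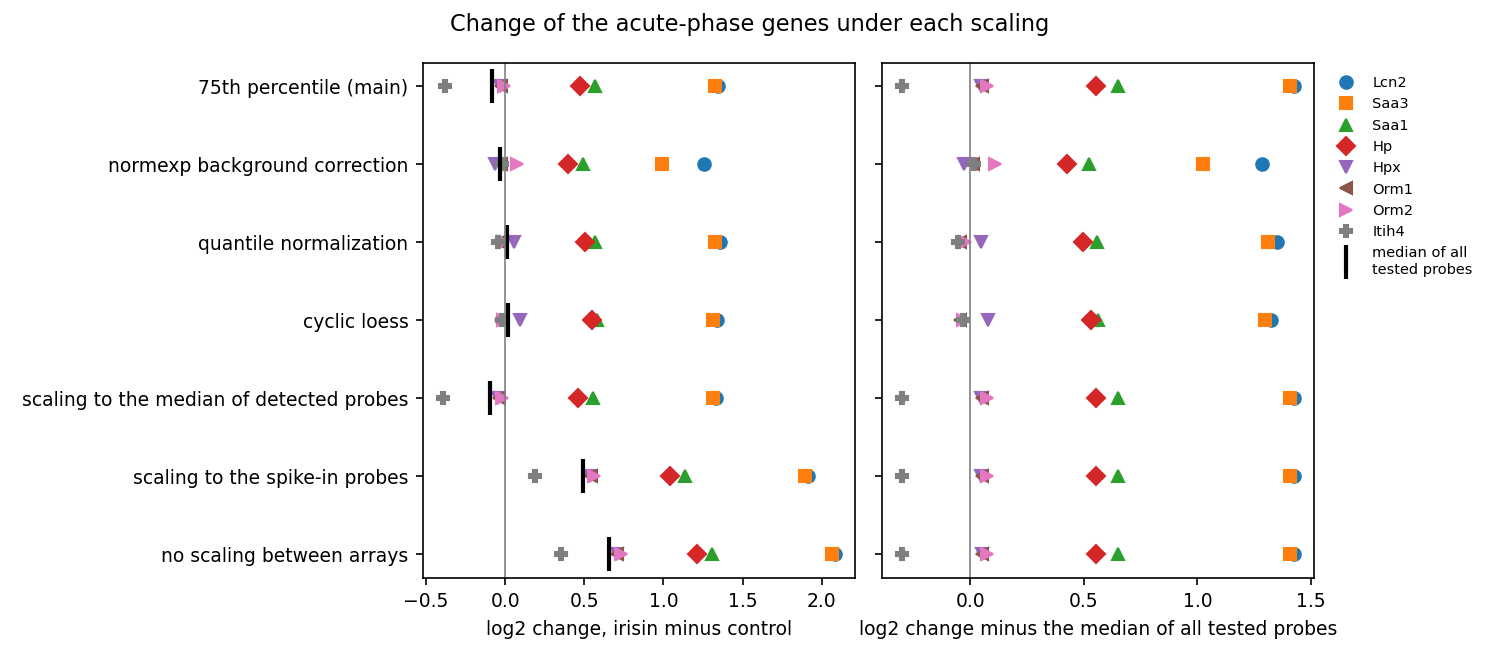
Change of 8 acute-phase genes (x axis, log2, irisin minus control) under 7 ways of correcting and scaling the arrays (y axis), as measured (left) and after subtracting the median change of all tested probes (right). Each symbol is a gene and the black bar is that median. The genes near 0 on the left move with the median to 0.49 and 0.66 in the last rows, and the right panel is the same by construction for the rows that scale each array by a single factor.

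Of 25 other positive acute-phase genes 20 were tested, and none was called up, against 0.531% of all tested genes, or down, against 10.2%, in limma. There were 6 at an unadjusted p under 0.05, against 29.5% of all tested genes, and none was called by the test of the methods. With no scaling between arrays 14 were called up, as were 14920 of all 24093 tested probes. Their median change was -0.02, with 7 of 20 above 0, and over all 14312 tested genes the median was -0.06, with 36.0% above 0. Fga, the alpha chain of fibrinogen, was -4.87, -4.85, -4.84 and -4.76 in control cells and -4.35, -4.58, -4.23 and -4.17 after irisin, a difference of 0.50 (limma adjusted p = 0.00381) that was under 1.5-fold. Fgg, its gamma chain, differed by -0.02 (limma adjusted p = 0.950), but by 0.42 with quantile normalization and 0.43 with cyclic loess. Hamp, which encodes the iron hormone hepcidin, differed by 0.38 (limma adjusted p = 0.0201), also under 1.5-fold. Fga and Hamp were dim, with processed signals of 12.7 to 47.3 and 14.8 to 50.6, and both passed 1.5-fold with quantile normalization (0.78 and 0.63) and with cyclic loess (0.80 and 0.66). Mt1 and Mt2 encode metallothioneins, which bind zinc and copper. Mt1 differed by -0.47 (limma adjusted p = 0.00179) and Mt2 by -0.30 (limma adjusted p = 0.0495), both without overlap between the groups and both under 1.5-fold. With no scaling they differed by 0.27 and 0.43 instead. Crp, the C-reactive protein gene, differed by 0.25 (limma adjusted p = 0.0583), Lbp, the LPS binding protein, by -0.16 (limma adjusted p = 0.371), and C3, the central complement component, by -0.19 (limma adjusted p = 0.159). C9, Serpina3n, Steap4 and A2m were above background on no array.

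The negative acute-phase genes, which hepatocytes turn down during the response, were also not called. Of 11 genes 9 were tested, with none called up or down in limma, against 0.531% and 10.2% of all tested genes, and none by the test of the methods. There were 2 at an unadjusted p under 0.05 in limma, against 29.5%, and the median change was -0.13. Trf, transferrin, was 7.02, 6.73, 6.77 and 6.93 in control cells and 6.37, 6.70, 6.47 and 6.36 after irisin. Its groups did not overlap and the difference was -0.39 (limma adjusted p = 0.0204), under 1.5-fold, and 0.35 with no scaling. Rbp4, the carrier of retinol, differed by -0.23 (limma adjusted p = 0.0775), while Alb, albumin, differed by 0.11 (limma adjusted p = 0.518) and Ttr, transthyretin, by -0.05 (limma adjusted p = 0.777).

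Among the receptors and regulators of the response, both chains of the interleukin-1 receptor had the largest differences. All 27 genes of this list were tested, 1 was called up and none down in limma, against 0.531% and 10.2% of all tested genes, and 4 had an unadjusted p under 0.05, against 29.5%. The median change was 0.00055. Il1rap, the accessory chain, was up-regulated. It was -5.03, -4.99, -4.90 and -5.20 in control cells and -4.46, -4.81, -3.97 and -4.51 after irisin, a difference of 0.59 (SE 0.16, limma adjusted p = 0.0177). Its probe was dim, with processed signals of 11.4 to 51.3, and its other probe was above background on 1 array only and was not tested. The call of Il1rap was lost without control replicate 4 (0.54) and without irisin replicate 3 (0.44). It was also lost with normexp (0.22), with scaling to the median of detected probes (0.58) and by the test of the methods (adjusted p = 0.0736). Il1r1, the chain that binds interleukin-1, was -1.16, -1.25, -1.17 and -1.25 in control cells and -0.49, -0.84, -0.80 and -0.67 after irisin. The groups did not overlap, and the difference was 0.51 (SE 0.09, limma adjusted p = 0.00238), under 1.5-fold.

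The interleukin-6 branch had 9 genes on this list, Il6ra, Il6st, Osmr, Lifr, Jak1, Jak2, Tyk2, Stat3 and Socs3. None was called up, against 0.531% of all tested genes, or down, against 10.2%. The differences ran from -0.31 in Tyk2 (limma adjusted p = 0.161) to 0.14 in Jak1 (limma adjusted p = 0.432), which both encode kinases bound to the receptors. Il6ra, the interleukin-6 receptor, differed by 0.03 (limma adjusted p = 0.895), Il6st, which encodes gp130, by -0.03 (0.862), and Stat3 by 0.0027 (0.995). Socs3, the feedback inhibitor of STAT3 signaling, differed by 0.03 (95% interval -0.15 to 0.21, limma adjusted p = 0.859). Cebpb and Cebpd, which encode C/EBP factors, differed by -0.15 (limma adjusted p = 0.504) and -0.06 (0.721). Of the NF-kB genes, Nfkb1, which encodes the p50 subunit, differed by -0.25 (limma adjusted p = 0.142). Nfkbia, the inhibitor that NF-kB itself induces, differed by -0.19 (limma adjusted p = 0.297). Nfkbiz, a nuclear cofactor of NF-kB that is needed for Lcn2 induction in several cell types, was -3.39, -3.15, -3.41 and -2.95 in control cells and -2.58, -3.20, -2.86 and -3.17 after irisin. Its groups overlapped and it differed by 0.27 (95% interval -0.07 to 0.62, limma adjusted p = 0.256). The interleukin-6 branch moved with the scaling. With no scaling between arrays Il6ra (0.77), Il6st (0.71), Jak1 (0.88), Stat3 (0.74) and Socs3 (0.77) passed the threshold, while Tyk2 (0.43) did not. With scaling to the spike-in probes Il6ra (0.60), Jak1 (0.71) and Socs3 (0.60) passed it. The median over all tested probes was 0.66 and 0.49 under these scalings.

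Most cytokines that drive the response were not measurable in these cells. Of 11 genes, Il6, Il1a, Il1b, Tnf, Osm and Il17a did not enter the test, and each was well above background on at most 1 of 8 arrays. Of the 5 tested genes 1 was called down, against 10.2% of all tested genes, and none up, against 0.531%, and 2 had an unadjusted p under 0.05 in limma, against 29.5%. The median change was -0.10. Il22 was called down. It was -3.79, -4.03, -3.78 and -3.62 in control cells and -4.80, -4.45, -4.58 and -4.32 after irisin, a difference of -0.73 (SE 0.12, limma adjusted p = 0.00133). Its processed signals, before scaling, were 27.0 to 42.5 over both groups, and its change was -0.52 with quantile normalization, -0.48 with cyclic loess, -0.22 with normexp and -0.16 with spike-in scaling, none of them past the threshold, and 0.0044 with no scaling. Lif, a cytokine of the interleukin-6 family, was -3.0, -2.95, -2.98 and -3.17 in control cells and -2.79, -2.44, -2.67 and -2.80 after irisin. It differed by 0.35 (limma adjusted p = 0.0290), under 1.5-fold.

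Of 11 receptors and partners of the acute-phase proteins 5 were tested, and none was called up or down in limma, against 0.531% and 10.2% of all tested genes, or by the test of the methods. There were 2 at an unadjusted p under 0.05 in limma, against 29.5%, and the median change was -0.15. Slc22a17, a receptor for lipocalin 2, was -4.95, -4.89, -4.87 and -4.97 in control cells and -5.59, -5.06, -5.68 and -5.52 after irisin. Its groups did not overlap and it differed by -0.54 (SE 0.13, limma adjusted p = 0.00979), under 1.5-fold, with processed signals of 12 to 20.5, and by 0.19 with no scaling. Without irisin replicate 2 it differed by -0.68 and was called down. Hmox1, which breaks down the heme that hemopexin delivers, had the widest spread of these 5 genes. It was 0.70, 0.36, 0.42 and 0.78 in control cells and 0.21, 2.08, 1.54 and 1.11 after irisin. Irisin replicate 1 lay below all control arrays, and the other irisin replicates lay above them. The difference was 0.67 (SE 0.32, limma adjusted p = 0.166), and without irisin replicate 1 it was 1.02 and called up. Lrp1, the receptor that takes up the hemopexin and heme complex, differed by -0.24 (limma adjusted p = 0.120). Tlr2, a receptor reported to bind serum amyloid A, differed by 0.05 (95% interval -0.22 to 0.32), and Scarb1, the HDL receptor, by -0.15 (limma adjusted p = 0.425). Cd163, which takes up the haptoglobin and hemoglobin complex, and Lrp2 were above background on no array.

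**Figure D4:**
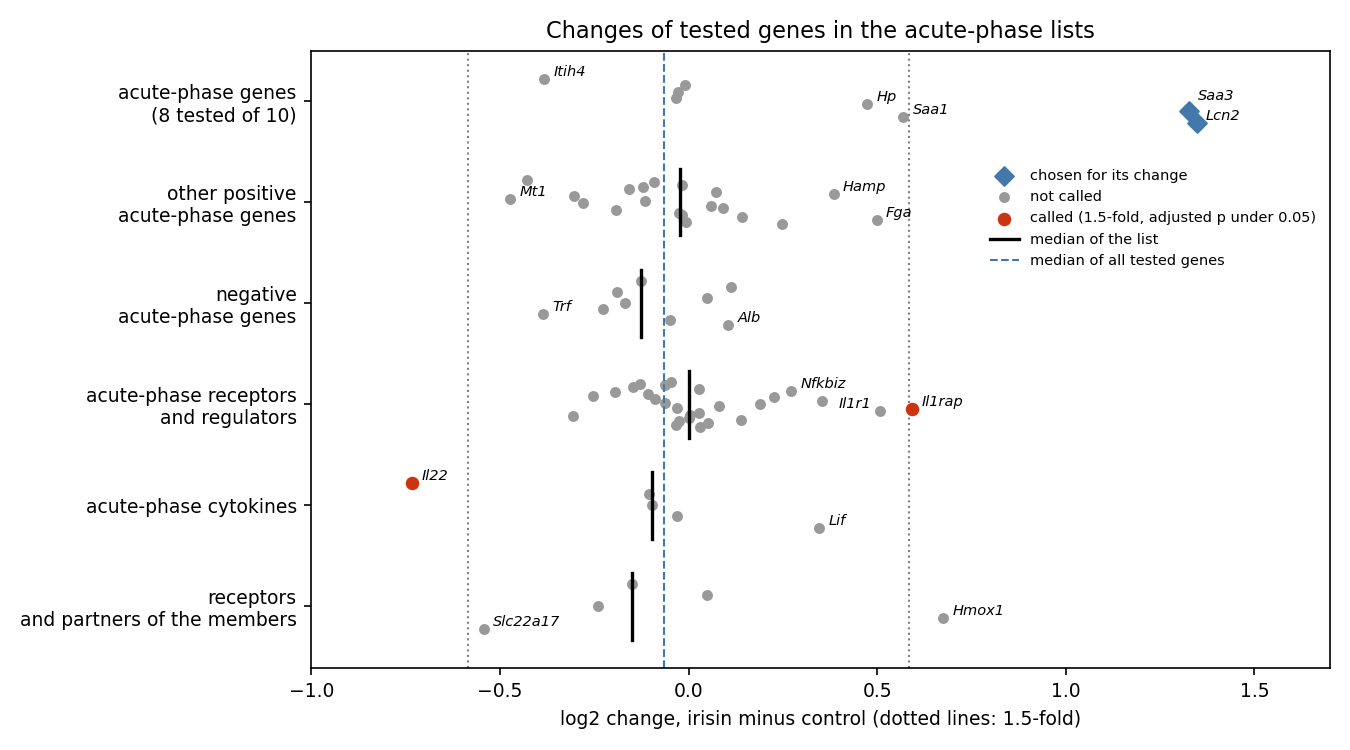
Change of each tested gene (x axis, log2, irisin minus control) in the acute-phase genes and in 5 related lists (y axis). Points are genes, red points passed 1.5-fold and an adjusted p under 0.05 in limma, black bars are the medians of the 5 lists, the dashed line is the median of all tested genes (-0.06) and dotted lines mark 1.5-fold. Lcn2 and Saa3 (blue diamonds), which were chosen for their change, lie far to the right, and of the lists Il1rap and Il22 are the genes called.

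The tested probes closest to Lcn2 and Saa3 over the 8 arrays were sought by the same measure, the root mean square difference of log2 values after each probe was centred on its control mean. Cxcl5, which encodes a chemokine that attracts neutrophils, came next after the pair themselves for both. It differed from Lcn2 by 0.334 and from Saa3 by 0.313 and was 1.06 higher on the irisin arrays, with means of 1.51 in control cells and 2.57 after irisin. Tmem38b, which encodes an intracellular cation channel, differed from them by 0.373 and 0.370 and was 0.96 higher, from a dim probe at -4.55 and -3.59, and was 0.38 higher with normexp. The remaining probes of this ranking were less certain. For Lcn2 they were Ywhaz (0.426) and Etfa (0.431), and for Saa3 they were Rhox8 (0.394) and Ywhaz (0.422). The Ywhaz probe was 0.88 higher on the irisin arrays, while its other probes differed by -0.07 and -0.04. The Etfa probe was 0.90 higher and its other probe 0.35, and the Rhox8 probe was 0.96 higher and its other probe differed by -0.48. These probes were picked for being like a pair that was itself chosen on the same arrays, so no test is given.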

How the data were processed

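RNA of 8 AML12 samples was isolated with Trizol and an RNeasy kit, labeled (Cy3) and run on one-color Agilent arrays. The authors processed the scans with Agilent Feature Extraction 12 (12.0.3.1 per the file headers) and deposited, for each array, signal intensity on a linear scale with background subtracted and not normalized between arrays. A deposited value table holds the average of the processed spots of a probe (largest deviation 0.0005%, column medians 13.8 to 25.2) and was used as an alternative. Control spots and spots marked as outliers (at most 0.463% of an array) were left out, spots of a probe were averaged, and the signal was divided by the 75th percentile of its array and put on the log2 scale, with no pseudocount. No spot was saturated. Probes were named by accession through the RefSeq table of GRCm38.p6, which matched 28663 of 39429 probes (72.7%). The files give positions on mm9, so no probe coordinates are printed.

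Samples were grouped by their deposited labels. The 24093 probes that every array of the control or of the irisin group detected well above background entered a limma fit (version 3.58.1, lmFit and eBayes, R 4.3.3), and a probe was called at 1.5-fold and a Benjamini-Hochberg adjusted p under 0.05 over all tested probes. The test of the methods, a two-group comparison of each probe without sharing of the spread, was run on the same values. For genes taken by role an exact permutation test (two-sided, 70 assignments) was added. A gene with several probes was represented by its brightest probe. The members, the gene lists and the tests were chosen with earlier results of these data known, and the lists were written from general knowledge. The text names the 10 genes, called members of the 5 lists and those described by role, and the 5 probes of other genes most like Lcn2 and most like Saa3. The fit was tested on simulated data. Alternatives were normexp background correction (offset 50, on the median spot signal, in place of the mean that was planned), quantile normalization, cyclic loess, other scalings and filters, the deposited value table, marked spots kept, an intensity trend, a replicate block, other thresholds, and each array left out. Precision is limited by the number of arrays. A planned comparison of protein sequences was not run, since no protein table was used here. The files were read with pandas 2.3.3 (Python 3.11.15), and matplotlib 3.10.9 drew the plots.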

Additional observations from a re-analysis of the deposited data

Results flagged for a closer look

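Of 100 groups of 4 arrays checked over the named genes, 3 held an array far from the other arrays, and chance alone sets such an array apart in about 1 group of 20. Control replicate 3 had Lbp at 2.48, while the other control arrays were at 2.29 to 2.31. Irisin replicate 2 had Il33, an interleukin-1 family cytokine, at 2.16, while the other irisin arrays were at 2.34 to 2.35. Control replicate 4 had Tyk2, a kinase of the cytokine receptors, at -1.49, while the other control arrays were at -1.04 to -0.95. None is among the 10 acute-phase genes.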

How the results depend on the processing

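Lcn2 and Saa3, which were chosen for their rise on these arrays, kept their direction under all alternatives, with changes of 1.25 to 2.09 and 0.99 to 2.06. When each array was left out in turn the changes were 1.25 to 1.46 and 1.22 to 1.46. Every alternative used the same arrays, with slide and scan tied to treatment, so these ranges are a description and no test of the rise. With no scaling between arrays 24 of the 26 named genes below 0 turned. Of these Il22 lost its call (0.0044), and 10 genes that were not called passed the threshold in the other direction, at 0.71 for Hpx, 0.71 for Orm1, 0.73 for Orm2, 0.63 for Il33, 0.72 for Fgg, 0.69 for Ttr, 0.71 for Il6st, 0.59 for Cebpb, 0.68 for Cebpd and 0.59 for Scarb1. The median over all tested probes was then 0.66. Signal over background limits the dim probes, of which Il1rap and Il22 lost their calls under several alternatives.

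Of all 24093 tested probes, 172 were called up and 2816 down. The counts were 36 and 75 with normexp, 692 and 927 with cyclic loess, 670 and 1021 with quantile normalization, 14920 and 162 with no scaling, 7510 and 372 with spike-in scaling, 713 and 5197 with the adjusted p alone, and 23 and 778 at 2-fold. With no filter on dim probes 12737 of 39413 were called down, and by the test of the methods 108 were called up. Leaving out each array gave 102 to 335 up, the ends being without irisin replicates 3 and 2, and 2632 to 3052 down.

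The list counts that follow stand beside 14920 of 24093 tested probes called up with no scaling and 7510 with spike-in scaling. Of the genes taken by role, 5 were called up with no scaling, 2 with spike-in scaling and 1 with the adjusted p alone, and 0 to 2 when each array was left out, namely Saa1 or Hp. With no filter, and with the adjusted p alone, 1 was called down. Other positive acute-phase genes called up were 2 with cyclic loess, 2 with quantile normalization, 14 with no scaling, 7 with spike-in scaling and 2 with the adjusted p alone, and those called down were 4 with no filter and 2 with the adjusted p alone. Of the negative acute-phase genes, 5 were called up with no scaling and 3 with spike-in scaling, and 2 were called down with no filter and 1 with the adjusted p alone. Receptors and regulators called up were 0 with normexp, detected-median scaling, the test of the methods or 2-fold, 24 with no scaling, 12 with spike-in scaling and 2 with the adjusted p alone, and 0 to 1 when each array was left out. Cytokines called down were 0 with normexp, quantile normalization, cyclic loess, no scaling, spike-in scaling or 2-fold, and 5 with no filter. Those called up were 4 with no scaling, 1 with spike-in scaling and 1 with the adjusted p alone. Receptors and partners called up were 3 with no scaling and 2 with spike-in scaling, those called down were 4 with no filter and 1 with the adjusted p alone, and leaving out each array gave 0 to 1 either way. For counts not moved by the shift of all probes or by the altered threshold, the cause was not tested.

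Control and irisin arrays of the same number did not deviate together throughout (r = 0.11, -0.35, -0.13 and 0.17), and not every array correlated best with its own number. Such correlations cannot decide whether the samples were paired by number. With the replicate number as a block 173 probes were called up and 2832 down. The block changed no call of a named gene.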
